A study of Rattus norvegicus with 18 samples.

Results

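The 10 genes described here mark bile duct cells (cholangiocytes) and the duct-like cells of the ductular reaction: Krt19, Krt7, Epcam, Sox9, Spp1, Cftr, Sctr, Cldn7, Cd24 and Prom1. They were chosen as known markers, with earlier results of these data known. Their probes were found through the RefSeq accession that each probe carries. A matched probe was found for 9 of 10 genes, and no probe was matched for Sox9, a transcription factor of the duct lineage. Where a gene had several probes, the one with the highest mean over the 18 arrays was used. All 9 genes with a probe were among the 10914 genes tested, of 15645 genes matched.

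Liver RNA was taken from 18 F344 rats, all male, which arrived 5 weeks old and had 1 week to settle before dosing, and each RNA was hybridised to its own one-colour Agilent array. The rats formed 6 groups of 3. At day 28 and at day 84 there were controls, rats given N-nitrosodiethylamine (DEN, a nitrosamine that alkylates DNA) at 4 mg/kg in saline, and rats given carbon tetrachloride (CCl4, a solvent that injures hepatocytes after its metabolism) at 100 mg/kg in corn oil. Both compounds were given by gavage every day, in 5 mL/kg. The sample titles name the controls as vehicle, while the protocol speaks of rats on basal diet without treatment, and whether controls received gavage was not given in the sources used here. Compound and vehicle therefore cannot be told apart in comparisons with controls. Nothing beyond the numbered titles says that the 3 samples of a group are separate litters or cages, so p-values measure the spread between these samples.

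Cholangiocytes line the bile ducts, modify bile by secreting chloride, bicarbonate and water, and respond to the hormone secretin. When a liver is injured for a long time, duct-like cells that carry biliary keratins and surface proteins multiply at the portal tracts. This ductular reaction is known from rats given hepatotoxic or carcinogenic compounds, where such cells have been called oval cells. Osteopontin, the product of Spp1, is made by these cells and also by activated macrophages and stellate cells.

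The value of a gene on an array is the log2 of its background-corrected signal minus the 75th percentile of that array, called its log2 level. Levels of different genes come from different probes and were not set against each other. The 75th percentile lay between 170 and 325, and 47.2% to 57.0% of an array's 61537 probes gave signal well above background. Pearson correlations between arrays of a group lay at 0.991 and above in the control and DEN groups at day 28, controls at day 84 and CCl4 at day 84. They reached down to 0.976 in CCl4 at day 28 and 0.989 in DEN at day 84. The arrays lay on 3 slides: the first held all day 28 controls and DEN arrays with CCl4 replicates 1 and 2, the second held CCl4 day 28 replicate 3, all day 84 controls and DEN arrays and CCl4 day 84 replicate 1, and the third held CCl4 day 84 replicates 2 and 3 and was scanned on another day. Every DEN comparison with controls was therefore made within a slide.

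The promoters of the members differ in make-up, and those of Spp1, Cldn7, Epcam and Cd24 are shown as examples. Spp1, Cldn7 and Epcam were called higher with CCl4 at both days and with DEN at day 84. Cd24 was called higher at day 84 only, with both compounds. RefSeq promoter windows (build GRCr8) were found for 7 of 10 members: Cftr, Epcam, Cldn7, Sctr, Spp1, Prom1 (with a pair of starts) and Cd24. The 250 bases before the start site of the table are printed 5′ to 3′ on the gene's strand. That site is the outermost 5′ end of the gene for Epcam and Cldn7, but lies 891 bases inside the annotated gene for Spp1, 928 for Cd24, 65 for Sctr and 105545 for Cftr, and 342 and 9336 for the sites of Prom1, so those windows belong to inner transcript starts. Capitals mark the E-box CACCTG, a site bound by E-box factors such as those of the Snail and Zeb families, or its reverse complement, and the AP-1 site TGANTCA.

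The Spp1 stretch lies at chr14:5619805-5620054 on the minus strand, Cldn7 at chr10:55188420-55188669 on the plus strand, Epcam at chr6:12649679-12649928 on the minus strand and Cd24 at chr20:48656227-48656476 on the plus strand.
Spp1: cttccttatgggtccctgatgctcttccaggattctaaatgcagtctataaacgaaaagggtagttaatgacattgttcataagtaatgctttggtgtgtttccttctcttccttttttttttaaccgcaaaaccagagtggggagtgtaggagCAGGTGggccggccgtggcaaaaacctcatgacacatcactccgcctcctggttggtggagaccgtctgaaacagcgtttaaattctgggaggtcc
Cldn7: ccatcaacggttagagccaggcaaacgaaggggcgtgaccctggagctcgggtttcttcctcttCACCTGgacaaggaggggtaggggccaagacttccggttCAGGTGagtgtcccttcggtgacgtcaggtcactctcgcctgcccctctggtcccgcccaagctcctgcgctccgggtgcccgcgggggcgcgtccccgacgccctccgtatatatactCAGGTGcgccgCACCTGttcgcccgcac
Epcam: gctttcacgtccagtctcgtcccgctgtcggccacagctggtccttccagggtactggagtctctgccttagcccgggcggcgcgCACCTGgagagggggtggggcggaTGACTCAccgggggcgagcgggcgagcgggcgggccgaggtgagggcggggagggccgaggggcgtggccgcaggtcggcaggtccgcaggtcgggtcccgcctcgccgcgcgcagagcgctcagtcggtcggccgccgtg
Cd24: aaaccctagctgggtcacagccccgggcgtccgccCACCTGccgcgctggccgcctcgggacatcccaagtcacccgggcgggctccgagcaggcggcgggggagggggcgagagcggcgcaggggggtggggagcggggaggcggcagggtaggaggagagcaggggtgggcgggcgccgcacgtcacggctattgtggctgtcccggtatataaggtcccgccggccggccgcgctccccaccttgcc

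Across 8 motifs searched on both strands, CACCTG was present before 6 of 7 members with a window, all but Cftr, and before 15.9% of all 33469 promoters. A member counted if any of its windows held the letters, while the shares are over single windows. The 7 members have 8 windows, and Prom1 held CACCTG and TGANTCA in different windows. Cldn7 held 4 copies of CACCTG or its reverse complement, at 186, 147, 28 and 17 bases before the start. In Cd24 the first base of the E-box was also the last base of a GC box. TGANTCA was found in Epcam and Prom1 and in 6.34% of all promoters. The GC box GGGCGG was found in Cftr, Epcam, Cldn7, Prom1 and Cd24, against 30.5% of all promoters. GTTAAT and TATAAA were found in Spp1 alone of the 7 members, against 6.45% and 12.9% of all promoters. No member's 250 bases held GGAATG (TEAD, 12.1% of promoters), GTGGGAA (RBPJ, 5.27%) or the NF-kB site searched (0.314%). Base composition differed too: G and C made up 46.8% of the Spp1 stretch, 65.6% of Cldn7 and 75.6% of both Epcam and Cd24, against a median of 51.2% over all promoters. These are matches of letters and were not compared with any binding data.

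After 28 days of DEN no member passed the test, after 28 days of CCl4 6 of 9 did, and by day 84 8 of 9 did with DEN and 9 of 9 with CCl4. All of these calls were rises, in genes chosen with earlier results of these data known. A gene passed the test when its adjusted p was under 0.05 (limma, Benjamini-Hochberg over all 10914 genes). Over all genes, 15.0% were called with DEN at day 28, 52.7% with DEN at day 84, 59.7% with CCl4 at day 28 and 64.3% with CCl4 at day 84. The shares called higher were 7.82%, 21.6%, 26.1% and 28.0% in the same order. At an unadjusted p under 0.05, limma counted 1 of 9 members (Sctr) and 3454 of all genes with DEN at day 28. With DEN at day 28 the 3 treated arrays lay above the 3 controls for 1 of 9 members, where 17.0% of all genes did so. The other counts of members without overlap were 8 of 9 with DEN at day 84 (26.3% of all genes higher), 6 of 9 with CCl4 at day 28 (26.1%) and 9 of 9 with CCl4 at day 84 (31.0%).

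Of the 9 members, Cftr, Sctr and Spp1 passed the filter on dim probes through treated groups alone, so a rise in them is partly built into the count. Of the 6 that all 3 arrays of a control group measured, 5 rose with DEN at day 84, 3 with CCl4 at day 28 and 6 with CCl4 at day 84. The median change of the 9 members was 0.10 with DEN at day 28, 1.77 with DEN at day 84, 1.43 with CCl4 at day 28 and 2.67 with CCl4 at day 84, on the log2 scale. With Cftr and Sctr at the lowest fold their controls allow, it was 0.003, 1.53, 1.43 and 2.43. The medians over all genes were -0.04, -0.08, -0.06 and -0.10. In whole liver RNA, more cells of a type and more RNA per cell cannot be told apart.

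**Figure D1:**
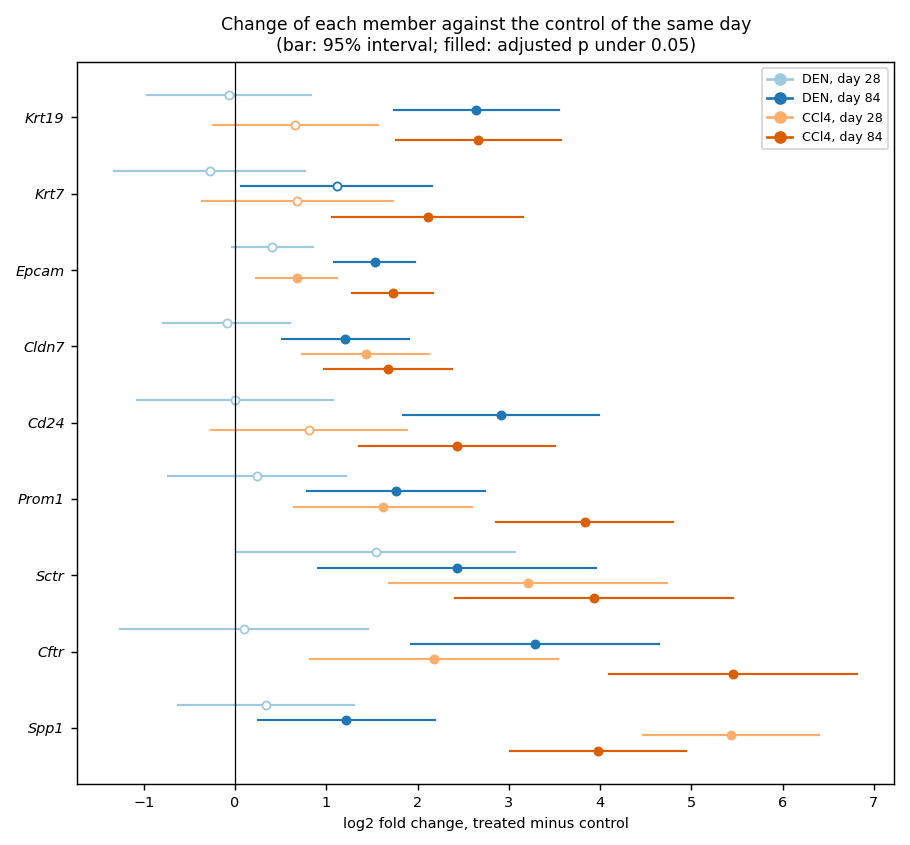
Change of each of the 9 members against the controls of the same day (x axis, log2 fold change, treated minus control), one line per treatment and day, with 95% intervals over 3 rats a group and filled points for adjusted p under 0.05. All DEN day 28 points are open, while every CCl4 day 84 point is filled, from 1.68 for Cldn7 to 5.46 for Cftr; Cftr and Sctr were not well above background in the controls, so their points are fitted values and not bounds.

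Scaling to the spiked-in control RNAs in place of the 75th percentile raised the median of all genes by 0.39, 0.64, 0.78 and 0.54 (DEN day 28 and 84, CCl4 day 28 and 84). Of the genes then called, 97.9%, 95.2%, 93.8% and 88.5% were higher, where 75th percentile scaling called 854 higher and 785 lower with DEN at day 28, 2354 and 3396 with DEN at day 84, 2846 and 3668 with CCl4 at day 28, and 3051 and 3962 with CCl4 at day 84. Under spike-in scaling 2, 9, 9 and 9 members were called, all higher, where 35.8%, 68.5%, 79.0% and 62.3% of all genes were called. Rises and falls are therefore relative to the bulk of liver transcripts.

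Krt19, the biliary keratin most used to stain ducts, rose at day 84 with both compounds by nearly the same amount. At day 28 its log2 levels were -0.88, -0.13 and -1.54 in controls, -0.74, -0.94 and -1.07 with DEN, and -0.64, 0.91 and -0.85 with CCl4. At day 84 they were -1.28, -1.55 and -2.07 in controls, 1.0, 1.48 and 0.55 with DEN, and 1.1, 0.88 and 1.12 with CCl4. The day 28 groups overlapped, with CCl4 replicate 2 alone above all others, whereas at day 84 each treated array lay above each control. The day 84 change was 2.65 ± 0.42 with DEN (log2, SE; 6.25-fold, adjusted p = 0.000183) and 2.67 ± 0.42 with CCl4 (6.34-fold, adjusted p = 8.99e-05). The day 28 changes of -0.07 with DEN and 0.66 with CCl4 did not pass the test (adjusted p = 0.932 and 0.19).

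Krt7, a second biliary keratin, pairs with type I keratins such as Krt19 in duct cells. Its log2 levels at day 28 were -3.37, -3.04 and -3.59 in controls, -3.65, -3.13 and -4.04 with DEN, and -2.93, -1.22 and -3.81 with CCl4. At day 84 they were -3.77, -3.71 and -4.57 in controls, -3.07, -2.38 and -3.26 with DEN, and -1.73, -2.00 and -1.98 with CCl4. The probe was dim, and DEN day 28 replicate 3 and control day 84 replicates 2 and 3 were not well above background. Krt7 rose with CCl4 at day 84 by 2.11 ± 0.49 (4.33-fold, adjusted p = 0.00173), against controls measured on 1 of 3 arrays, and by 0.54 with normexp correction (adjusted p = 0.0224). With DEN at day 84 all 3 arrays lay above the controls, but the change of 1.12 (95% interval 0.07 to 2.16) did not pass (adjusted p = 0.0683). It passed with slide as a block (adjusted p = 0.0352), with the replicate number as a block (adjusted p = 0.0192), in the fit of those 2 groups (adjusted p = 0.0298) and under spike-in scaling (1.75, adjusted p = 0.00698), and with normexp correction it was 0.04 (adjusted p = 0.865). With CCl4 at day 28 the change of 0.68 did not pass either (adjusted p = 0.243). Without replicate 3, the only CCl4 day 28 array on another slide, it was 1.26 (adjusted p = 0.0241), with slide as a block 1.26 (adjusted p = 0.0302), and within that slide's arrays alone 1.26 (adjusted p = 0.0695). Without CCl4 replicate 2 it was -0.04 (adjusted p = 0.941).

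Epcam, an epithelial adhesion protein of duct and progenitor cells that adult hepatocytes lack, had the tightest controls. It stood at 0.21, 0.20 and 0.26 in day 28 controls, at 0.66, 0.48 and 0.76 with DEN, and at 0.84, 1.41 and 0.45 with CCl4. At day 84 it stood at 0.13, 0.01 and 0.10 in controls, at 1.46, 2.01 and 1.36 with DEN, and at 2.04, 1.59 and 1.79 with CCl4. All treated arrays lay above the controls of their day in all 4 comparisons. The rise was 1.53 ± 0.21 with DEN at day 84 (2.89-fold, adjusted p = 5.08e-05) and 1.73 ± 0.21 with CCl4 at day 84 (3.32-fold, adjusted p = 8.98e-06). With CCl4 at day 28 it was 0.68 ± 0.21 (1.60-fold, adjusted p = 0.0116), but it did not pass in the fit of those 2 groups (adjusted p = 0.0637) or without CCl4 replicate 2 (0.42, adjusted p = 0.0649). The DEN day 28 difference of 0.41 did not pass the test (adjusted p = 0.192), but passed when only those 2 groups were fitted (adjusted p = 0.035) and under spike-in scaling (0.80, adjusted p = 0.0412).

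Cldn7, a claudin of epithelial tight junctions, responded to CCl4 by day 28. It was measured at -0.99, -1.02 and -1.12 in day 28 controls, -1.46, -1.35 and -0.59 with DEN, and 0.24, 1.21 and -0.28 with CCl4. At day 84 it was at -0.75, -0.96 and -0.33 in controls, 0.33, 1.01 and 0.24 with DEN, and 1.09, 1.03 and 0.86 with CCl4. Only DEN at day 28 overlapped its controls. The rises were 1.43 ± 0.33 with CCl4 at day 28 (2.70-fold, adjusted p = 0.00176), 1.21 ± 0.33 with DEN at day 84 (2.31-fold, adjusted p = 0.00685) and 1.68 ± 0.33 with CCl4 at day 84 (3.20-fold, adjusted p = 0.000472).

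Cd24, a glycosylated surface protein of immature epithelial cells, was the member that stood highest with DEN. Its levels at day 28 were 0.65, 1.07 and 0.57 in controls, 0.65, 0.91 and 0.74 with DEN, and 0.93, 2.84 and 0.96 with CCl4. At day 84 they were 1.0, 0.54 and 0.37 in controls, 3.48, 4.67 and 2.52 with DEN, and 3.22, 2.76 and 3.23 with CCl4. At day 28 only CCl4 replicate 2 left the range of the others by more than their spread. The day 84 rises were 2.92 ± 0.50 with DEN (7.57-fold, adjusted p = 0.000328) and 2.43 ± 0.50 with CCl4 (5.39-fold, adjusted p = 0.000744). The day 28 CCl4 change of 0.81 did not pass (adjusted p = 0.175).

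Prom1 (CD133), a membrane protein of the apical surface used to sort progenitor cells, rose more with CCl4 than with DEN. It stood at -1.26, -0.44 and -1.35 in day 28 controls, -0.56, -0.77 and -1.0 with DEN, and 0.20, 1.97 and -0.36 with CCl4. At day 84 the levels were -0.76, -1.31 and -1.35 in controls, 0.62, 0.99 and 0.27 with DEN, and 2.97, 2.27 and 2.83 with CCl4. The 3 groups of day 84 did not overlap one another. The changes were 1.77 ± 0.45 with DEN at day 84 (3.41-fold, adjusted p = 0.00517), 3.83 ± 0.45 with CCl4 at day 84 (14.2-fold, adjusted p = 8.34e-06) and 1.62 ± 0.45 with CCl4 at day 28 (3.07-fold, adjusted p = 0.00711). The last was 0.94 without CCl4 replicate 2 (adjusted p = 0.0237) and did not pass when only those 2 groups were fitted (adjusted p = 0.078). The probes with the next highest means, which were bright, gave the same order of groups at day 84, with mean levels of -1.72, -0.07 and 1.96 for controls, DEN and CCl4 on the second probe.

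Sctr, the secretin receptor, which in liver is a cholangiocyte gene, was not well above background on any control array. At day 28 the values were -4.49, -5.23 and -5.68 in controls, -4.86, -4.66 and -1.24 with DEN, and -1.94, -1.55 and -2.28 with CCl4. At day 84 they were -4.89, -5.50 and -5.71 in controls, -2.82, -2.34 and -3.63 with DEN, and -1.20, -1.72 and -1.36 with CCl4. In DEN at day 28 replicate 3 alone was well above background, at a level above all CCl4 day 28 arrays. Where a control group was dim, only a bound can be given: the treated mean over the lowest signal measurable on those control arrays. Sctr rose at least 3.19-fold with CCl4 at day 28 (adjusted p = 0.00145), at least 1.78-fold with DEN at day 84 (adjusted p = 0.0109) and at least 5.04-fold with CCl4 at day 84 (adjusted p = 0.000264). These p-values are from the limma fit of the log2 differences of 3.21, 2.435 and 3.935 against unmeasured controls, and the bounds themselves were not tested. The DEN day 28 change of 1.55 in the fit did not pass (adjusted p = 0.151). With normexp background correction, which shrinks dim signals, Sctr passed with CCl4 at day 84 (0.87, adjusted p = 0.0018) but not with DEN at day 84 (0.16, adjusted p = 0.528) or CCl4 at day 28 (0.40, adjusted p = 0.103).

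Cftr, the chloride channel of the duct cell's apical membrane that secretin opens through cyclic AMP, showed the largest fitted change of the members with CCl4 at day 84. It gave -4.11, -3.83 and -4.09 in day 28 controls, -3.04, -5.07 and -3.64 with DEN, and -2.62, -0.34 and -2.53 with CCl4. At day 84 it gave -3.75, -4.75 and -5.70 in controls, -1.55, -0.82 and -1.96 with DEN, and 1.13, 0.34 and 0.71 with CCl4. No control array and only replicate 1 of DEN day 28 was well above background, and all 3 CCl4 arrays of day 84 lay above all others in the study. Cftr rose at least 21.9-fold with CCl4 at day 84 (adjusted p = 6.96e-06), at least 4.87-fold with DEN at day 84 (adjusted p = 0.000766) and at least 3.40-fold with CCl4 at day 28 (adjusted p = 0.0088). Here too the p-values are from the fitted log2 differences, of 5.46, 3.29 and 2.18, and not from tests of the bounds. Without CCl4 replicate 2 the day 28 change went from 2.18 to 1.44 in the fit (adjusted p = 0.0508), and with normexp correction it was 0.50 (adjusted p = 0.152). The 2 other Cftr probes were well above background on 2 of 18 arrays each. On these probes the DEN day 84 difference was -0.17 and -0.50, with DEN dim throughout, and the CCl4 day 84 difference was 1.75 (adjusted p = 0.000562) and 1.35 (adjusted p = 0.0647).

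Spp1 encodes osteopontin, a secreted integrin and CD44 ligand, and had a pattern of its own. Its log2 levels at day 28 were -3.63, -3.41 and -3.13 in controls, -2.79, -3.42 and -2.94 with DEN, and 2.30, 2.32 and 1.52 with CCl4. At day 84 they were -2.26, -3.47 and -3.11 in controls, -2.29, -0.43 and -2.47 with DEN, and 1.35, 0.79 and 0.94 with CCl4. Every CCl4 array lay above every DEN and control array, and Spp1 was the member whose mean was highest at day 28 of CCl4 and not at day 84. The rise was 5.44 ± 0.45 with CCl4 at day 28 (43.3-fold, adjusted p = 5.77e-07) and 3.98 ± 0.45 at day 84 (15.8-fold, adjusted p = 5.77e-06). The controls were well above background on 1 of 3 arrays at day 28 and 2 of 3 at day 84, so these folds are set against partly unmeasured groups, and normexp correction gave 3.32 and 2.31. With DEN at day 84 the change of 1.22 ± 0.45 (adjusted p = 0.0351) rested on replicate 2. It was 0.57 without DEN replicate 2 (adjusted p = 0.186), 0.96 without control replicate 2 (adjusted p = 0.134) and 1.14 without control replicate 3 (adjusted p = 0.089), and it was not called in the fit of those 2 groups alone (adjusted p = 0.142), with quantile normalization (1.05, adjusted p = 0.0672), without the dim-probe filter (adjusted p = 0.0506) or with normexp correction (0.32, adjusted p = 0.277).

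**Figure D2:**
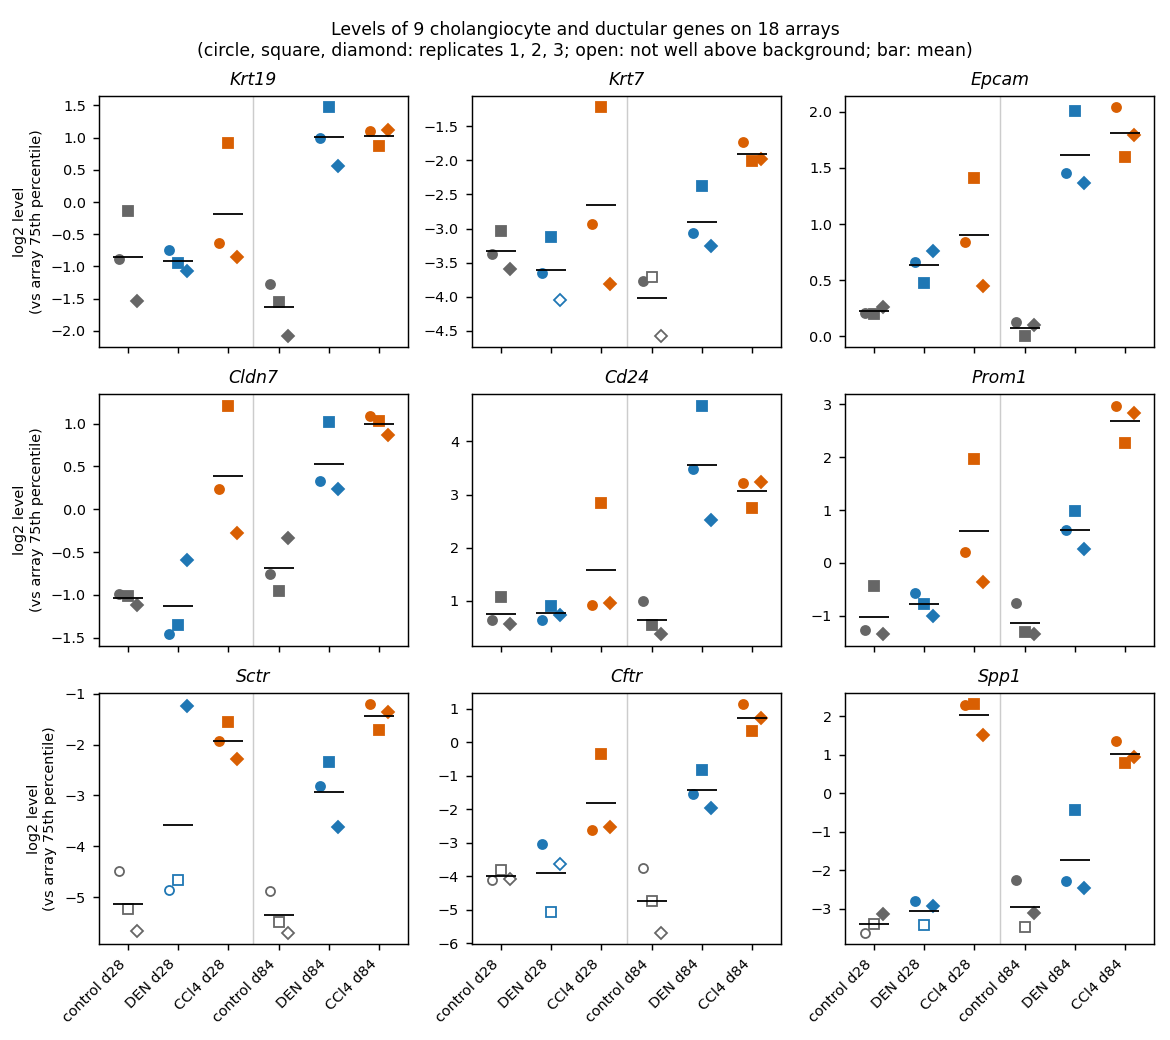
Log2 level of each member (y axis, relative to the 75th percentile of the array) on the 18 arrays, by group on the x axis, with symbols for replicates, open symbols where the probe was not well above background, and a bar at each mean. At day 84 the CCl4 arrays sit above the controls for all 9 genes, Spp1 in CCl4 lies above all other groups, and CCl4 day 28 replicate 2 (square) is the highest of its group in every panel.

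The order of the groups was much alike from gene to gene. CCl4 at day 84 had the highest mean for 7 of the 9 members, with DEN at day 84 highest for Cd24 and CCl4 at day 28 highest for Spp1. Of those 7, its arrays overlapped the next lower group for Cldn7, Epcam, Krt19, Krt7 and Sctr, and stood clear of it for Cftr and Prom1. For Cd24 the DEN and CCl4 arrays of day 84 overlapped, and for Spp1 the CCl4 arrays of day 28 stood clear of those of day 84. Controls of day 84 had the lowest mean for 7 members, with Cldn7 lowest with DEN at day 28 and Spp1 in day 28 controls. Between the control groups of the 2 days 0 of 9 members passed the test, against 9.77% of all genes (4.44% higher), and at an unadjusted p under 0.05 limma counted 0 of 9 members and 2828 of all genes. For 1 of 9 members the day 84 controls lay above the day 28 controls without overlap, as for 14.3% of all genes. For 2 of 9, Epcam and Krt7, they lay below. The share of all genes that lay below was not counted, so the latter count has nothing to be set against.

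Within groups, single rats carried much of the spread. CCl4 day 28 replicate 2 was the highest of its group for 9 of 9 members and 22 of 25 other cholangiocyte genes, but for 41.6% of all genes tested. DEN day 84 replicate 2 was the highest of its group for 9 of 9 members and 20 of 25 other cholangiocyte genes, against 40.3% of all genes, and DEN day 84 replicate 3 was the lowest for 9 of 9. The summed linear level of the members was 12.1, 24.5 and 8.79 in the 3 CCl4 rats of day 28 and 19.5, 38.0 and 12.8 in the 3 DEN rats of day 84. Bright probes weigh most in such sums. In these DEN rats Cd24 had the largest signal of the members before scaling (3330, 8080 and 1630), followed by Epcam (822, 1270 and 731). Stellate and myofibroblast genes summed to 155, 285 and 143 in the same CCl4 rats, and mesothelial genes to 4.26, 10.6 and 2.62, so CCl4 replicate 2 was high in these lists too. In the DEN rats the stellate sums of 51.5, 57.1 and 56.0 were close together. The part of these cells in the members' values was not tested.

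CCl4 and DEN, at doses that differ and are given side by side only, were compared within each day. Their vehicles, corn oil and saline, differed too. Compound, dose and vehicle cannot be told apart in these comparisons. At day 28 members higher with CCl4 numbered 4 of 9 (Cftr, Cldn7, Prom1 and Spp1), while 45.1% of all genes were called and 20.4% of all were higher. At day 84 they numbered 3 of 9 (Cftr, Prom1 and Spp1), where 34.3% of all genes were called and 18.5% of all were higher. Members without overlap, all higher with CCl4, numbered 5 of 9 at each day (24.5% and 25.4% of all genes higher). Spp1 differed most, by 5.10 ± 0.45 at day 28 (34.2-fold, adjusted p = 2.95e-06) and 2.76 ± 0.45 at day 84 (6.77-fold, adjusted p = 0.000441). At day 84 Prom1 was higher with CCl4 by 2.06 ± 0.45 (4.18-fold, adjusted p = 0.00341) and Cftr by 2.17 ± 0.63 (4.51-fold, adjusted p = 0.0168).

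The other 6 members did not pass the test at day 84. The CCl4 minus DEN difference was 0.02 for Krt19 (95% interval -0.88 to 0.92), 0.20 for Epcam (-0.25 to 0.64), 0.47 for Cldn7 (-0.23 to 1.17) and -0.49 for Cd24 (-1.56 to 0.59). Krt7 and Sctr had intervals of -0.05 to 2.04 and -0.02 to 3.02, with all CCl4 arrays above all DEN arrays. Both passed in the fit of the 2 groups (adjusted p = 0.0212 and 0.0166), Krt7 also with the replicate block (adjusted p = 0.0461) and Sctr with normexp correction (0.71, adjusted p = 0.0129). On the slide that held all 3 DEN arrays and CCl4 replicate 1, the CCl4 minus DEN difference was 2.35 for Prom1, 2.58 for Cftr (adjusted p = 0.0744) and 3.08 for Spp1 (adjusted p = 0.0667), and 1 member, Prom1, was called. There the single CCl4 array is assumed to vary like the arrays of the other groups. With slide as a block Cftr was 2.58 (adjusted p = 0.0701), and 2 members were called. Without DEN replicate 3 it was 1.91 (adjusted p = 0.0616), and without CCl4 replicate 1 it was 1.97 (adjusted p = 0.0567). At day 28 the first slide alone gave 5 members.

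At day 28, the CCl4 minus DEN difference was 1.52 ± 0.33 for Cldn7 (adjusted p = 0.0019), 2.09 for Cftr (adjusted p = 0.0158) and 1.38 for Prom1 (adjusted p = 0.0233). Cftr was well above background on only 1 of 3 DEN arrays, and the difference did not pass with normexp correction (0.56, adjusted p = 0.129) or on the second probe (0.09, adjusted p = 0.85). In the fit of the 2 groups neither Cftr (adjusted p = 0.0936) nor Prom1 (adjusted p = 0.124) passed. Cftr and Prom1 were not called without CCl4 replicate 2 (1.34, adjusted p = 0.0875, and 0.70, adjusted p = 0.103) or without DEN replicate 2 (1.51, adjusted p = 0.081, and 1.39, adjusted p = 0.0541). Prom1 was not called without DEN replicate 3 either (1.27, adjusted p = 0.0728). For Sctr the difference of 1.66 did not pass (adjusted p = 0.0704), and without DEN replicate 3 it was 2.84 (adjusted p = 0.000213). For Krt7 it was 0.96 (adjusted p = 0.126), and 1.53 without CCl4 replicate 3 (adjusted p = 0.0115).

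**Figure D3:**
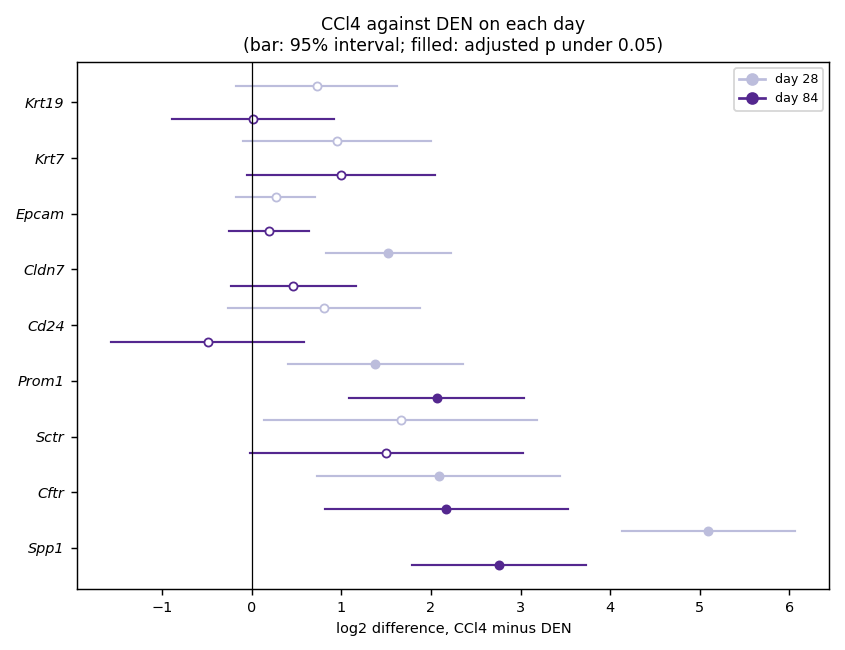
Difference between CCl4 and DEN (x axis, log2, CCl4 minus DEN) for each member at day 28 and day 84, with 95% intervals over 3 rats a group and filled points for adjusted p under 0.05. Spp1 stands apart at both days, and the day 84 intervals of Krt19, Epcam, Cldn7 and Cd24 span 0.

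The effect of each compound against its controls was also compared between days. With DEN, 4 of 9 members had a larger effect at day 84 (16.1% of all genes were called, 7.64% as higher), namely Cd24, Cftr, Epcam and Krt19. Krt19 gained 2.71 ± 0.60 (adjusted p = 0.00965) and Cd24 2.92 ± 0.71 (adjusted p = 0.0154). With CCl4, 2 of 9 did so (6.03% of all genes called, 3.51% as higher), Cftr by 3.28 ± 0.90 (adjusted p = 0.0456) and Epcam by 1.05 ± 0.29 (adjusted p = 0.0489). The CCl4 effect on Spp1 was 1.46 smaller at day 84, which did not pass (-1.46 ± 0.64, adjusted p = 0.196). The CCl4 calls were not stable: of 12 fits with 1 array left out, Cftr was lost in 10 and Epcam in 11, and the count ran from 0 to 6. Without CCl4 day 28 replicate 2 it was 6 of 9: Krt19 (2.56), Krt7 (2.15), Cd24 (2.25) and Prom1 (2.89) were then called with Cftr and Epcam. Day 28 and day 84 controls lay on different slides.

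Other cholangiocyte genes, from a list of 36 of which 25 were tested, moved in the same comparisons. With DEN at day 28, 0 rose and 2 fell. With DEN at day 84, 14 rose and 2 fell, with CCl4 at day 28 15 rose and 3 fell, and with CCl4 at day 84 19 rose and 2 fell. The medians were 0.04, 0.98, 0.77 and 1.55 (DEN day 28 and 84, CCl4 day 28 and 84). The shares of all genes called were 15.0%, 52.7%, 59.7% and 64.3% in the same order, and 7.82%, 21.6%, 26.1% and 28.0% were called higher. Of the 25, 11 had passed the filter through treated groups alone, and with dim controls at their bound the medians were 0, 0.77, 0.77 and 1.55. Of the 14 measured in controls, 8, 7 and 10 rose in the last 3 comparisons. Without CCl4 day 28 replicate 2 the CCl4 day 28 count was 9 rises and 4 falls, and without DEN day 84 replicate 2 the DEN day 84 count was 11 rises and 1 fall.

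Mmp7, a matrix protease of injured ducts, rose at least 3.61-fold with DEN and at least 7.63-fold with CCl4 at day 84, and by 2.80 on the log2 scale with CCl4 at day 28. Ggt1, which cholangiocytes and altered hepatocytes of treated rats both make, rose by 5.76 with DEN at day 84 and by 2.80 with CCl4. The annexins Anxa4 and Anxa13 rose by 0.98 and 2.22 with DEN and by 1.21 and 2.67 with CCl4 at day 84. St14, an epithelial membrane protease, and Itgb6, the epithelial integrin subunit that activates latent TGF-beta, rose by 2.43 and 4.5 with CCl4 at day 84. Lcn2, named after its values were seen, rose at least 18.3-fold with CCl4 at day 84, while its change with DEN did not pass. The tight junction gene Cldn3 and the secreted Wfdc2 fell with CCl4 at day 28, by 1.19 and 1.24, and at day 84, by 0.89 and 1.55. They kept this direction under spike-in scaling, though Cldn3 at day 84 did not pass there (-0.36, adjusted p = 0.0724), whereas their smaller DEN day 84 falls of 0.40 and 0.34 turned to rises of 0.24 and 0.30 there.

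**Figure D4:**
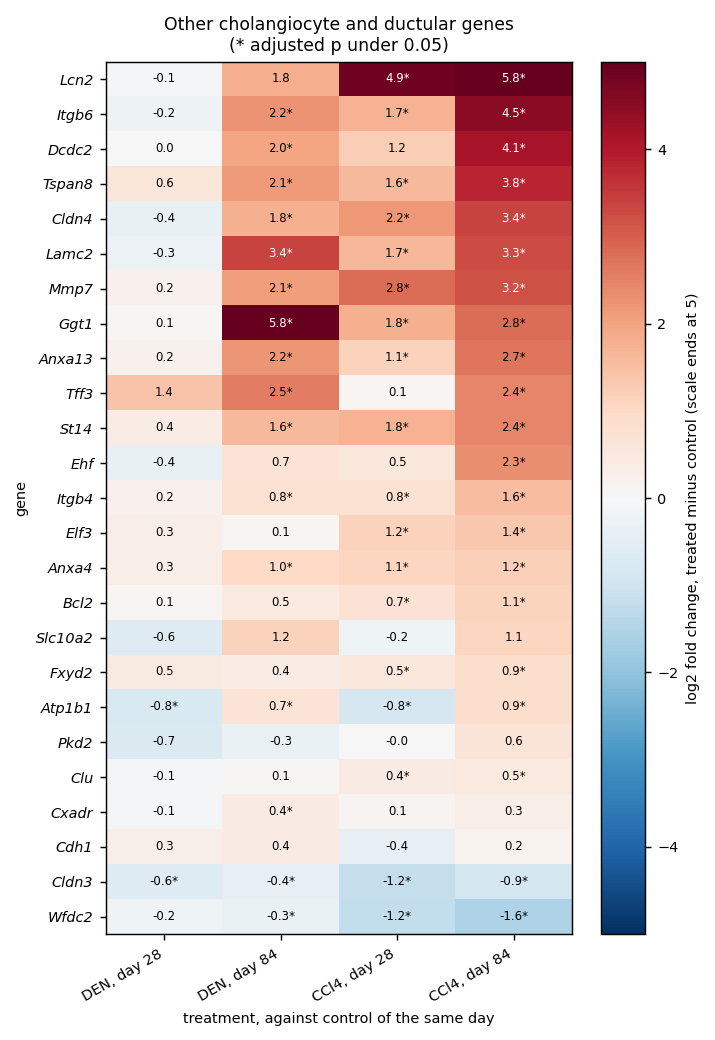
Log2 fold change of 25 other cholangiocyte and ductular genes (rows) against controls of the same day, for DEN and CCl4 at each day (columns), with colours and printed values on the same scale and a star for adjusted p under 0.05. The DEN day 28 column is pale, the other 3 columns are mostly red, and Cldn3 and Wfdc2 are called lower in both CCl4 columns.

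Among 15 biliary transcription factor and Notch genes tested of 20, 1 rose and 3 fell with DEN at day 84, 4 rose and 2 fell with CCl4 at day 28 and 7 rose and 1 fell with CCl4 at day 84. The shares of all genes called were 52.7%, 59.7% and 64.3% in these comparisons, and 21.6%, 26.1% and 28.0% were called higher. Foxj1, Heyl and Lfng passed the filter on dim probes through treated groups alone. Sox4, a SOX factor of the duct lineage, rose by 2.20, 1.94 and 2.66 in these comparisons. Jag1, the Notch ligand whose loss leaves livers without ducts, rose by 0.75 and 0.99 with CCl4 at day 28 and day 84, and its change with DEN at day 84 of 0.19 did not pass. With DEN at day 28, 0 rose and 0 fell. Under spike-in scaling none of the 15 were called lower in these comparisons, and 5, 8, 10 and 8 were called higher (DEN day 28 and 84, CCl4 day 28 and 84). That scaling called 35.8%, 68.5%, 79.0% and 62.3% of all genes in the same order, mostly as higher. Of 16 Hippo-YAP genes tested of 20, 6 rose and 3 fell with DEN at day 84, 3 rose and 4 fell with CCl4 at day 28 and 7 rose and 2 fell with CCl4 at day 84. The shares of all genes called were again 52.7%, 59.7% and 64.3%. Amotl2, Ankrd1 and Tgfb2 passed the filter on dim probes through treated groups alone. Under spike-in scaling 10, 13 and 11 of the 16 were called higher and none lower, where 68.5%, 79.0% and 62.3% of all genes were called. The YAP target Ankrd1 rose by 2.76 and the LIM protein Ajuba by 1.35 with CCl4 at day 84, and Ccn1, a matricellular target, rose by 1.36 with DEN and 2.01 with CCl4 at day 28.

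Ligands and receptors that drive the ductular reaction rose and fell, in numbers that depended on the scaling. Of 16 tested of 23, 2 rose and 1 fell with DEN at day 28, 2 rose and 5 fell with DEN at day 84, 7 rose and 6 fell with CCl4 at day 28 and 8 rose and 6 fell with CCl4 at day 84. Under spike-in scaling 6 and 0, 9 and 2, 11 and 3, and 8 and 3 rose and fell in the same order. The shares of all genes called were 15.0%, 52.7%, 59.7% and 64.3%, and under spike-in scaling 35.8%, 68.5%, 79.0% and 62.3%, mostly higher. Hbegf and Osmr passed the filter on dim probes through treated groups alone. Tnfrsf12a, the receptor of the duct mitogen TWEAK, rose at day 84 by 1.15 with DEN and 1.85 with CCl4, and its ligand gene Tnfsf12 rose by 0.71 with CCl4 while its DEN change of 0.09 did not pass. The oncostatin M receptor Osmr rose at least 1.79-fold with CCl4 at day 84, and the chemokine receptor Cxcr4 rose by 1.73. Cxcl12, the ligand of Cxcr4, fell at day 84 by 2.23 with DEN and 1.68 with CCl4, and Egfr by 1.27 and 1.43. These falls were called under spike-in scaling too.

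Receptors for osteopontin include CD44 and several integrins. Of 7 tested of 9, 0 rose and 1 fell with DEN at day 28, 3 rose and 2 fell with DEN at day 84, 4 rose and 1 fell with CCl4 at day 28 and 4 rose and 0 fell with CCl4 at day 84. Under spike-in scaling 4 and 0, 5 and 1, 7 and 0, and 7 and 0 rose and fell in the same order. The shares of all genes called were 15.0%, 52.7%, 59.7% and 64.3%, and under spike-in scaling 35.8%, 68.5%, 79.0% and 62.3%, mostly higher. Cd44 rose by 1.88 with DEN at day 84 and by 2.30 and 3.26 with CCl4 at day 28 and day 84. The integrin subunit Itga8, which stellate cells carry, rose by 1.62, 2.58 and 4.06 in the same order, and the shared subunit Itgb1 by 0.65, 0.81 and 0.88. Itga5 fell by 1.16 with DEN at day 84.

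Genes of secretin signalling and duct fluid transport went both ways with 75th percentile scaling, while spike-in scaling gave mostly rises. Of 12 tested of 14, 0 rose and 1 fell with DEN at day 28, 3 rose and 5 fell with DEN at day 84, 5 rose and 5 fell with CCl4 at day 28 and 6 rose and 4 fell with CCl4 at day 84. Under spike-in scaling 7 and 0, 6 and 1, 8 and 1, and 7 and 2 rose and fell in the same order. The shares of all genes called were 15.0%, 52.7%, 59.7% and 64.3%, and under spike-in scaling 35.8%, 68.5%, 79.0% and 62.3%, mostly higher. Gpbar1 of this list passed the filter on dim probes through treated groups alone. The water channel Aqp1 rose by 2.72 with CCl4 at day 84, and its DEN change of 0.48 did not pass. The carbonic anhydrase Car2, which supplies bicarbonate, rose at day 84 by 4.54 with DEN and 2.18 with CCl4, and the potassium channel Kcnn4 rose by 0.96 and 2.04. Nherf1, a scaffold that binds Cftr, fell by 1.15 with CCl4 at day 28 and 1.09 at day 84, also under spike-in scaling. The purinergic receptor P2ry2 fell by 1.53 with DEN at day 84.

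Of 8 oval and progenitor cell genes tested of 14, 0 rose and 1 fell with DEN at day 28, 3 rose and 1 fell with DEN at day 84, 2 rose and 0 fell with CCl4 at day 28 and 5 rose and 2 fell with CCl4 at day 84. The shares of all genes called were 15.0%, 52.7%, 59.7% and 64.3% in the same order. Bex1, Gpc3 and Ncam1 passed the filter on dim probes through treated groups alone, so a rise in them is partly built into the count. Bex1 rose at least 371-fold with DEN and at least 104-fold with CCl4 at day 84. The fetal transcript H19 rose by 5.12 with DEN and 5.85 with CCl4 at day 84. Gpc3, an oncofetal proteoglycan, rose by 1.68 and 2.87. Afp, the fetal albumin, rose by 0.72 with CCl4 at day 84, and its DEN change of -0.09 did not pass. Dlk1 fell by 1.58 with DEN at day 84 and was not called under spike-in scaling (-0.94, adjusted p = 0.0584).

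Markers of other liver cells moved in the same comparisons, some lists mostly up, some mostly down and some both ways. Of 14 hepatocyte genes 0 rose and 3 fell with DEN at day 28, 2 rose and 11 fell with DEN at day 84, 2 rose and 11 fell with CCl4 at day 28, and 2 rose and 10 fell with CCl4 at day 84. The risers were the keratins Krt8 and Krt18, which duct cells also make. In the same order 15.0%, 52.7%, 59.7% and 64.3% of all genes were called. Summed hepatocyte levels, in which bright probes weigh most, ran from 5950 to 6070 in day 28 controls, 3010 to 3730 with CCl4 at day 28, 5090 to 5200 in day 84 controls, 3100 to 3630 with DEN and 3360 to 4200 with CCl4 at day 84. Under spike-in scaling 1, 6 and 5 of these genes were still called lower (DEN day 84, CCl4 day 28 and 84). Albumin (Alb) was lower by 0.72, 1.08 and 0.64 with 75th percentile scaling, but under spike-in scaling only the CCl4 day 28 change passed (-0.08, -0.30 and -0.10).

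Stellate cell and myofibroblast genes, 12 tested of 13, had 2 rises with DEN at day 28, 6 rises and 1 fall with DEN at day 84, 9 rises with CCl4 at day 28 and 10 with CCl4 at day 84. Their summed level, in which bright probes weigh most, ran from 30.5 to 35.3 in day 84 controls, 51.5 to 57.1 with DEN and 163 to 234 with CCl4. Macrophage genes, 15 of 15 tested, had 3 rises and 0 falls with DEN at day 28, 5 and 1 with DEN at day 84, 5 and 6 with CCl4 at day 28, and 8 and 5 with CCl4 at day 84. The shares of all genes called, for this list and the others, were 15.0%, 52.7%, 59.7% and 64.3% in the same order. Cd9, Itgam, Mmp12 and Trem2 passed the filter on dim probes through treated groups alone. Trem2 and Gpnmb, genes of injury-associated macrophages, rose with Spp1 in CCl4: Gpnmb by 3.42 at day 28 and 3.51 at day 84, and Trem2 at least 190-fold at day 84. With DEN at day 84 Trem2 also stood at least 6.48-fold above controls. The Kupffer cell gene Clec4f fell by 1.78 and 2.79 with CCl4 at day 28 and day 84. All 7 tested of 8 genes of dividing cells rose with DEN at day 84 and with CCl4 at both days, and 4 rose with DEN at day 28. Of 3 mesothelial genes tested of 5, 2 of which passed the filter on dim probes through treated groups alone, 2 rose with CCl4 at day 84. Neutrophil genes, 4 tested of 8, had 1 rise with CCl4 at day 28 and 4 at day 84, and none with DEN. At day 84 of CCl4, 2 of them rose with quantile normalization and 4 with spike-in scaling. Csf3r of the neutrophil genes, Cenpf of the dividing cell genes and Lum of the stellate genes also passed that filter through treated groups alone. The CCl4 day 84 mean of Csf3r, -3.87, lay below the lowest signal measurable on the day 84 controls, -3.76, so no lowest fold can be given. Endothelial genes, 5 tested of 8, had 1 rise and 3 falls with DEN at day 84, and 2 and 4 falls with CCl4 at day 28 and day 84. Under spike-in scaling 0 and 1 endothelial genes were called lower at day 84, with DEN and CCl4. The part of these cells in the members' rises was not tested.

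Over the 18 arrays, which share groups, slides and scaling, the members' log2 levels were correlated, as a description. The highest Pearson r between members was 0.96, between Cftr and Prom1, and the lowest was 0.50, between Cd24 and Spp1. Krt19 and Cd24 reached 0.94. Of all other genes tested, those closest to Prom1 were Dcdc2 (0.99), a doublecortin-family gene on the cholangiocyte list, and Rflnb (0.99). Those closest to Cftr were Bex4 (0.98) and Itgb6 (0.97), to Krt19 Adgrg6 (0.98) and the keratin gene Krt20 (0.96), and to Cd24 the chloride channel family gene Clic5 (0.96) and Shtn1 (0.95). Epcam was closest to Kctd15 (0.97) and Rhbdl2 (0.96), Cldn7 to Smim22 (0.96) and Nhsl3 (0.95), Krt7 to Schip1 (0.92) and Etv4 (0.92), and Sctr to Prr7 (0.92) and Ap1m2 (0.92). The genes closest to Spp1 were Acot1 and Chpf (both 0.98).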

How the data were processed

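The submitters' processing notes name Agilent Feature Extraction 10.7.1.1, and the deposited scanner files hold background-corrected signal intensity per spot. The deposited value table holds a linear ratio: it equals the processed signal divided by 1 constant per array on 18 of 18 columns, within 0.01 log2, and was otherwise not used. The members, gene lists and rule for named genes were chosen with earlier results of these data known. Of 62976 spots, 1439 controls were left out, as were 18 probes marked as outliers on any array, and 0 were saturated. RefSeq accessions matched 28206 of 61537 probes to 1 gene each. Log2 values of the deposited signals had the array's 75th percentile subtracted. A probe was kept if some group had it well above background in each of its 3 rats (33790 probes), and 1 probe per gene left 10914 genes. limma 3.58.1 (lmFit, eBayes) in R 4.3.3 fitted 6 group means over 18 arrays (12 residual, 14.1 total degrees of freedom). P-values were adjusted by Benjamini-Hochberg over all genes of a comparison, with a threshold of 0.05. The steps were tested on simulated data. Alternatives were normexp background correction (offset 50), other dim-probe filters, quantile and spike-in scaling, slide and replicate blocks, fits of the compared groups or of 1 slide per day, other probes, and leaving out each array. Leaving out CCl4 day 28 or DEN day 84 replicate 2 for the wider list was chosen after seeing the data. Named genes were the members, from each list up to 4 called genes with the smallest adjusted p per comparison and its first 2 members, and the 2 genes most correlated with each member. Files were read with data.table (version 1.17.8) and promoters and figures made with Python 3.11.15, pandas 2.3.3, numpy 2.4.6 and matplotlib 3.10.9. The number of arrays limits the precision.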

Additional observations from a re-analysis of the deposited data

Results flagged for a closer look

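The effect of DEN against controls was larger at day 84 than at day 28, by a test of that difference in limma, for Cd24 (2.92 ± 0.71 on the log2 scale, adjusted p = 0.0154), Cftr (3.19 ± 0.90, adjusted p = 0.0283), Epcam (1.12 ± 0.29, adjusted p = 0.021) and Krt19 (2.71 ± 0.60, adjusted p = 0.00965). Of these, Krt19 and Cd24 passed whichever array was left out, while Cftr was lost in 5 of 12 such fits and Epcam in 3. The effect of CCl4 was larger at day 84 for Cftr (3.28 ± 0.90, adjusted p = 0.0456) and Epcam (1.05 ± 0.29, adjusted p = 0.0489), but of 12 fits with 1 array left out these calls were lost in 10 and 11. Cftr was not well above background in either control group, so its differences are fitted values.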

How the results depend on the processing

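Members called were recounted under each alternative. Requiring detection on each of the 18 arrays, which leaves 5 members tested, gave 5 with DEN at day 84, 3 with CCl4 at day 28, 5 with CCl4 at day 84, 2 in CCl4 against DEN at day 28 and 1 at day 84. Spike-in scaling gave 2 with DEN at day 28, 7 in CCl4 against DEN at day 28 and 0 for the day difference of CCl4. Fitting only the compared groups gave 1 with DEN at day 28, 2 and 5 in CCl4 against DEN at day 28 and day 84, and 0 for the day difference of CCl4. Arrays of 1 slide per day gave 1 in CCl4 against DEN at day 84 and 0 for the CCl4 day difference, where the day 84 CCl4 arm is a single array assumed to vary like the others. That last count was also 4 with normexp correction, 0 without the filter on dim probes and 0 with slide as a block. The cause of these shifts was not tested.

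Leaving out each array gave 2 to 5 calls in CCl4 against DEN at day 28, where 2 came without DEN replicate 2 and without CCl4 replicate 2. It gave 2 to 6 for the DEN day difference, lowest without DEN day 28 replicate 2, control day 84 replicate 2 or DEN day 84 replicate 2, and 0 to 6 for the CCl4 day difference, highest without CCl4 day 28 replicate 2. The counts with DEN at day 84 (7 to 8), CCl4 at day 28 (4 to 7), CCl4 at day 84 (9 to 9), DEN at day 28 (0 to 0) and CCl4 against DEN at day 84 (2 to 3) stayed within 1.5 times.

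Replicate numbers are shared between groups, but same-numbered arrays did not deviate together (correlations -0.14 to 0.13), so the numbers were not taken as pairs. With the number as a replicate block the day difference of CCl4 gave 1 call in place of 2, and the 4 counts against controls were 0, 9, 6 and 9.

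Differences past the threshold changed sign only on other probes of the same gene, which were not well above background on most arrays. Differences that had not passed changed sign more often, for example Krt7 with CCl4 at day 28 (0.68) without CCl4 replicate 2 (-0.04), Cd24 in CCl4 against DEN at day 84 (-0.49) without DEN replicate 2 (0.07) and Krt19 with DEN at day 28 (-0.07) under spike-in scaling (0.32). The second Cftr probe gave -0.17 for DEN at day 84 and -0.10 for the DEN day difference. The other Cftr probe gave -0.50 for DEN at day 84, -0.65 for CCl4 at day 28, -1.12 for CCl4 against DEN at day 28 and -0.96 for the DEN day difference. The fourth Prom1 probe gave -0.077 for CCl4 against DEN at day 28. Background limits Cftr and Sctr, whose control levels were not measurable, and Krt7 and Spp1 near it. The count of 0 members with DEN at day 28 does not show that duct genes were unaltered: there 1 of 9 members and 3454 of all genes had an unadjusted p under 0.05.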

Other observations

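Pancreatic acinar genes, which also serve as a check for pancreas in a liver sample, did not move together. Cpa1, a carboxypeptidase gene of acinar cells, rose at least 23.1-fold with DEN at day 84, with a mean log2 level of 0.77 against controls not well above background. Cpb1, another acinar carboxypeptidase gene, had a DEN day 84 change of -1.08 that did not pass the test, and 4 of 8 genes of the list were tested. Of these, Cpa1 and Cela1 passed the filter on dim probes through treated groups alone.

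The bile acid receptor gene Gpbar1, which cholangiocytes and macrophages carry, rose at least 6.28-fold with CCl4 at day 84 against controls and was at least 8.28-fold higher than with DEN, where no array was well above background. Blnk, an adaptor gene on the B cell list, rose at least 7.79-fold with CCl4 and at least 3.13-fold with DEN at day 84. It passed the filter on dim probes through treated groups alone, and the list as a whole did not rise. Of 4 B cell genes tested of 7, 1 rose and 2 fell in each of these comparisons. The list medians were -0.60 with CCl4 and -0.66 with DEN, where 64.3% and 52.7% of all genes were called. Gpbar1 also passed that filter through treated groups alone, and was singled out after its values were seen.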
